A study of Homo sapiens with 6 samples.

Results

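The genes described here encode the nuclear subunits of the mitochondrial respiratory chain and of ATP synthase. They were taken from the expression table by name: names starting with NDUF, UQCR, COX4 to COX8 or ATP5, together with CYC1 and CYCS. The name pattern matched 267 of the 60664 genes in the table, of which 167 had pseudogene names, 6 had hyphenated names and 8 had a mean under 1 TPM over the 6 libraries. TPM is a transcript level divided by gene length and scaled to the same total in every library. The remaining 86 genes were 38 of complex I, 8 assembly factors of complex I (the NDUFAF genes), 9 of complex III, CYCS, 12 of complex IV and 18 of complex V.

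The libraries came from 67R cells, NCI-H1975 lung adenocarcinoma cells that had been made resistant to ASK120067, an inhibitor of the EGFR kinase. In 3 libraries the cells carried a negative control siRNA (siNC), and in 3 an siRNA against BCAT1 (siBCAT1), the cytosolic enzyme that begins the breakdown of branched-chain amino acids. All 6 libraries share the resistant background and parental cells are not analysed here, so the comparison concerns BCAT1 knockdown within resistant cells of one line. The methods give the name siBCAT1 to 1 of the BCAT1 siRNAs used in the study. The labels do not say whether the replicates were separate cultures, and p-values therefore measure the spread between these libraries.

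Complex I takes electrons from NADH, complex III passes them to cytochrome c, and complex IV hands them to oxygen. All of them pump protons across the inner mitochondrial membrane, and complex V, ATP synthase, uses the returning protons to make ATP. A few subunits are encoded by the mitochondrial genome, whereas the rest are made from nuclear genes, imported and put together with the help of dedicated assembly factors. Many of the nuclear genes are known targets of the transcription factors NRF1, GABPA, YY1 and ERRA.

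The promoters of 4 genes that moved are printed here, chosen by their words. Of these, 3 hold the exact word GCATGCG, the NRF1 core as searched, and the gene with the largest fall does not. They run from 250 bases before to 50 bases after the start in RefSeq (GRCh38.p14), 5′ to 3′ on the strand of the gene. Capitals mark the NRF1 core GCATGCG, the ETS core of GABPA CCGGAAG and the YY1 core AAGATGG, each on either strand, and none of the 4 holds the ERRA core AAGGTCA. The promoter of CYCS, which rose, is chr7:25125211-25125510 on the minus strand; that of NDUFA8, which rose, is chr9:122159730-122160029 on the minus strand; that of COX5B, which fell, is chr2:97645812-97646111 on the plus strand; and that of NDUFA12, which fell most, is chr12:95003648-95003947 on the minus strand.
CYCS: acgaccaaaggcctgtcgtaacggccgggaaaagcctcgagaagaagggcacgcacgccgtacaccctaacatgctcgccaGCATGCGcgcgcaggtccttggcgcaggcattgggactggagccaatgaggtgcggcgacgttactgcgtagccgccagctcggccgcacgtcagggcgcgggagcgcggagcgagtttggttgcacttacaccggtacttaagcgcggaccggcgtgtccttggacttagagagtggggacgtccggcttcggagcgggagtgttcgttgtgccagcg
NDUFA8: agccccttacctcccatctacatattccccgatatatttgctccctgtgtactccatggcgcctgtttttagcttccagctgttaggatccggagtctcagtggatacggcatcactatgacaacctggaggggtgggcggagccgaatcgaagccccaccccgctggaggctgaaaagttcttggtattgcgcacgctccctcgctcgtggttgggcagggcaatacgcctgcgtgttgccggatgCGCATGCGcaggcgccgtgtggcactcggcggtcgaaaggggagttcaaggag
COX5B: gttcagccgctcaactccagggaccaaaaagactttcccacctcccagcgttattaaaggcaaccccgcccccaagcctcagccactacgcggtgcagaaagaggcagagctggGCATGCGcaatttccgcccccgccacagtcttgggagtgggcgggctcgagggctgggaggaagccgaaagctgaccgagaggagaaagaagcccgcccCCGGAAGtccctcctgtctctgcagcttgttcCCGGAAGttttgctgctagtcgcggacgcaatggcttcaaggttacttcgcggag
NDUFA12: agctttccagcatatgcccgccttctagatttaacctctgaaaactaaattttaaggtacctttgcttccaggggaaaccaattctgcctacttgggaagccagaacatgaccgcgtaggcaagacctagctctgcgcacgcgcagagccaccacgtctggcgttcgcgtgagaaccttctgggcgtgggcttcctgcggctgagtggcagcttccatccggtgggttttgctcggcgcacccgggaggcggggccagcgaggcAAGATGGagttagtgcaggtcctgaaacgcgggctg

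The NRF1 core stood in the promoters of CYCS, NDUFA8 and COX5B, and that of NDUFA12 held the YY1 core and not the word GCATGCG. Only exact words were counted. The near form GCACGCG in the NDUFA12 promoter was therefore left out, and other forms of the cores were not searched. Of genes that rose and are not printed, NDUFS6 held the NRF1 core and ATP5MG did not. ATP5IF1 and NDUFAF2, which also rose, held none of the cores searched. In NDUFA8 the core reads the same way on both strands over overlapping letters, and it is 1 site. Of the 86 genes, 72 had a promoter in the table, and 14 of those (19.4%) held the NRF1 core, against 4.13% of all 27305 promoters and 6.68% of the 9975 promoters of genes tested. The YY1 core was in 15 (20.8%, against 7.78% of tested promoters), the ERRA core AAGGTCA in 7 (9.72%, against 2.49%) and the ETS core in 19 (26.4%, against 20.4%). The core of the hypoxia response element, ACGTG, was in 19 (26.4%, against 27.2%). The NRF1 core was present in 5 of 13 promoters of genes that rose, 2 of 5 of genes that fell and 7 of 54 of genes that passed no threshold. Shares among all tested genes that rose or fell were not computed, so these counts do not tie the core to a direction. The letters are a description of the window, not binding sites.

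BCAT1 itself, the check of the labels, was at 42.7, 42.2 and 29.8 TPM in siNC and at 8.78, 7.1 and 8.0 TPM in siBCAT1. The groups did not overlap, and its log2 fold change was -2.12 ± 0.15 (SE, adjusted p = 0.000272). This p and all adjusted p-values below are from limma on log2(TPM + 1) with Benjamini-Hochberg adjustment over the 14286 genes that averaged 1 TPM or more, and log2 fold changes are siBCAT1 against siNC on that scale. Keratin genes of epithelial cells were plentiful, with KRT8 between 829 and 1347 TPM, but EPCAM was between 0.91 and 2.61 TPM in all libraries. The summed level of the 6 epithelial markers was lower in siBCAT1 (1231 to 1436 TPM) than in siNC (1702 to 1990 TPM), with KRT8, KRT18, KRT19 and CDH1 past the threshold. Leukocyte markers (4, with CD3E at 0) summed to between 0.81 and 1.74 TPM, endothelial markers (3) to between 0.74 and 2.61 TPM, and fibroblast markers (4, with LUM at 0) to 16.8 to 24.4 TPM in siNC and 11.4 to 14.5 TPM in siBCAT1. The part of these shifts in the results below was not tested.

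As a whole, the respiratory chain genes changed little. Their summed level was 21526, 22712 and 22279 TPM in siNC and 22232, 22656 and 22666 TPM in siBCAT1, between 2.16% and 2.28% of each library, and the groups overlapped. The median log2 fold change over the 86 genes was 0.010, against 0.038 over all genes tested. Their interquartile range ran from -0.096 to 0.127, a narrower band than that of all genes (-0.199 to 0.28). Of the 86, 56 were within 0.15 of 0, against 4768 of the 14286 genes tested. The 86 genes also had higher levels, with a median of 197 TPM against 13.9 TPM over all genes tested. The part of level in the narrower band was not tested.

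Of the 86 genes, 19 (22.1%) passed an adjusted p of 0.05, against 27.1% of all genes tested. In siBCAT1, 14 were higher (16.3%, against 16.7% of all genes) and 5 were lower (5.81%, against 10.4%). Under a stricter filter, 5 TPM on average, 16 of the 86 were higher (18.6%) and 5 were lower (5.81%). Both shares were below those of the 10456 genes then tested, 21.7% higher and 12.5% lower. The siNC and siBCAT1 libraries did not overlap for 37 genes (43%), against 44.1% of all genes tested. The split of 14 higher to 5 lower became 12 to 12 when the fold changes were corrected for GC content and gene length (13.95% each, against 15.1% of genes higher and 13.5% lower in that fit). It became 11 to 11 after quantile normalization (12.8% each, against 14.3% and 13.1%), and the median was negative in both and under median-ratio scaling. Without siBCAT1 replicate 1, 9 genes were higher (10.5%, against 10.04% of all genes in that fit). For 62 of the 67 genes that were not called, the 95% interval of the log2 fold change lay within 0.5 of 0, the others being NDUFA7, NDUFV3, NDUFB1, NDUFAF8 and COX6B2.

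**Figure D1:**
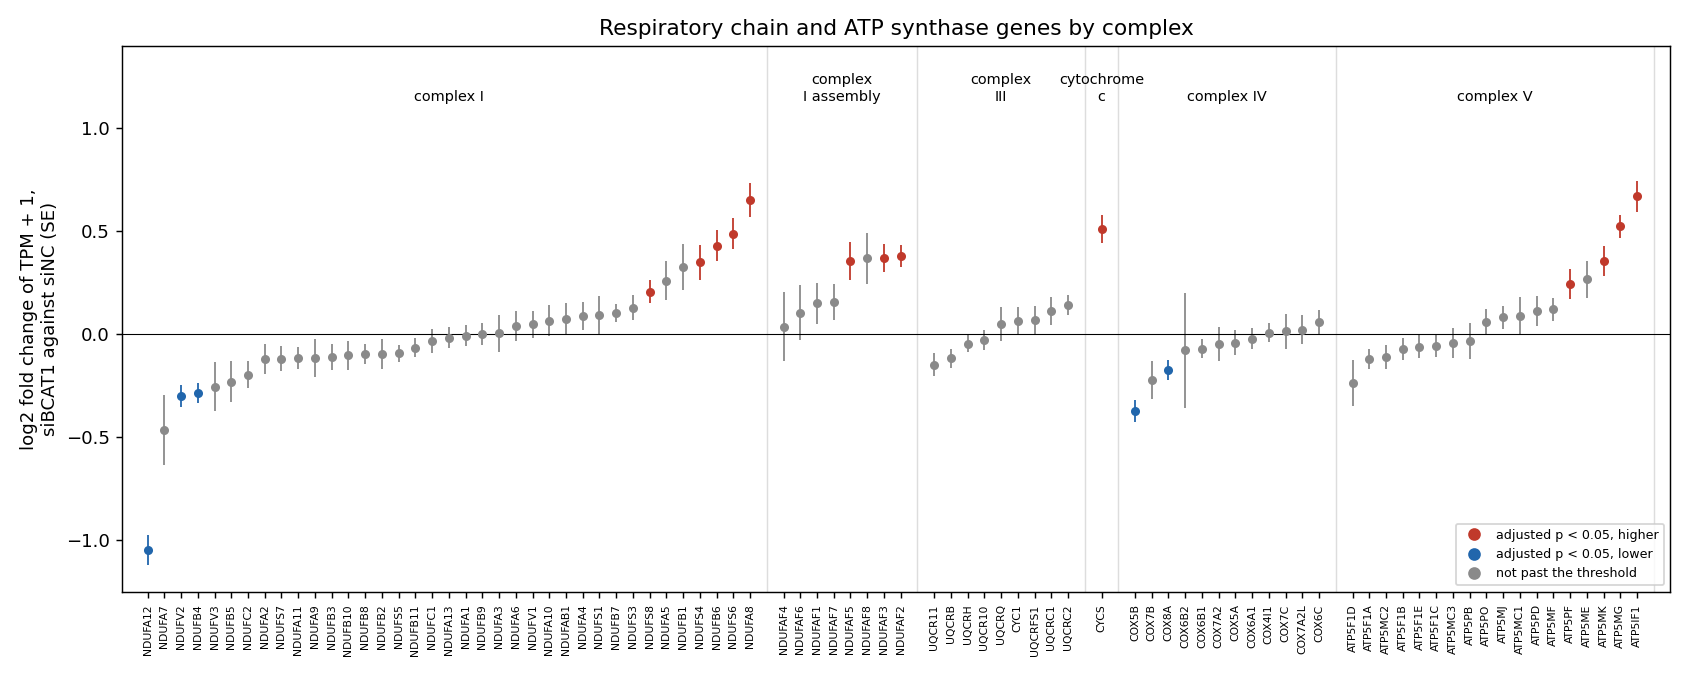
Log2 fold change (y axis, siBCAT1 against siNC on the log2(TPM + 1) scale, points with SE) of 85 of the 86 genes (x axis), ordered within each complex, with red for adjusted p under 0.05 and higher, blue for lower and grey for neither. NDUFA12 at -1.05 and NDUFA8 at 0.65 stand at the ends of the complex I genes shown, most points of complexes III and IV lie near 0, and all 8 complex I assembly factors lie above 0, although NDUFAF4 turns sign under median-ratio scaling and the GC and length correction.

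By summed level, complex I came to 9349 ± 251 TPM for siNC against 9409 ± 90.6 TPM for siBCAT1 (SD, n = 3), and complex III to 2346 ± 11.2 and 2336 ± 19.6 TPM. Complex IV came to 4351 ± 105 TPM for siNC against 4127 ± 84.8 TPM for siBCAT1, a difference of -5.15%. Complex V was at 5659 ± 263 and 6046 ± 56.3 TPM, 6.84% higher in the mean. The complex I assembly factors came to 384, 401 and 404 TPM in siNC against 499, 493 and 504 TPM in siBCAT1, 25.8% higher in the mean. The groups did not overlap for complexes IV and V and for the assembly factors, and they overlapped for complexes I and III. For complex IV the nearest libraries were at 4230 TPM (siNC) and 4185 TPM (siBCAT1), and for complex V at 5954 TPM (siNC) and 5983 TPM (siBCAT1). These narrow gaps are on the TPM scale, and the sums were not recomputed under median-ratio scaling. Sums were compared as a description, with no test.

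**Figure D2:**
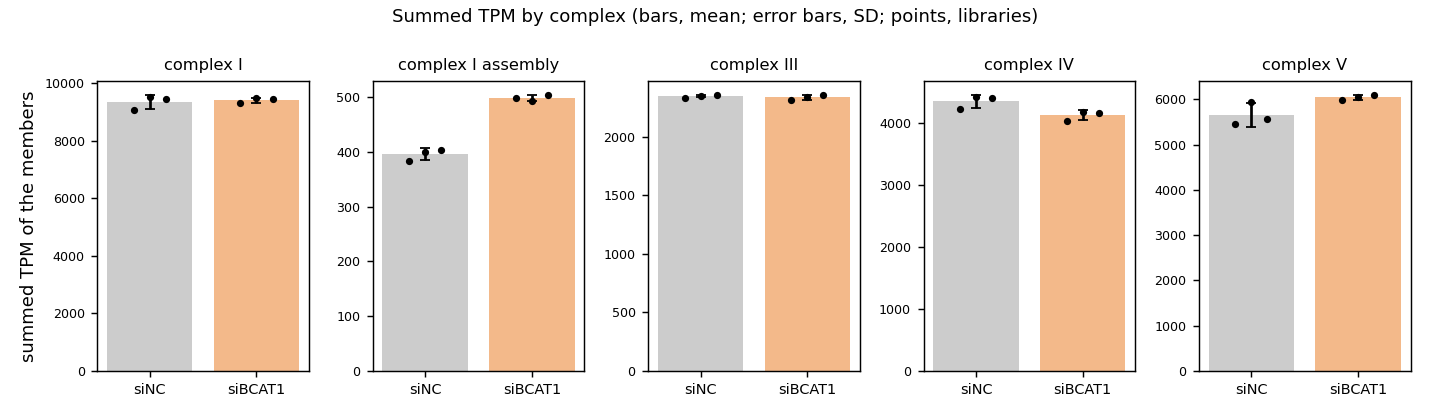
Summed TPM of the genes of each complex (y axis, from 0) in siNC and siBCAT1, with bars for the mean of 3 libraries, error bars for the SD and points for libraries. The bars of complexes I and III are level, whereas the complex I assembly factors average 396 TPM for siNC against 499 TPM for siBCAT1.

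Complex I held the largest fall. Of its 38 genes, 6 rose and 3 fell (15.8% and 7.89%, against 16.7% and 10.4% of all genes), and the median log2 fold change was -0.012. Among the 7 core subunits, which carry the flavin, the iron-sulfur clusters and the quinone site, NDUFS8 was among those that rose and NDUFV2 fell. NDUFS8, which carries 2 iron-sulfur clusters, was at 314, 327 and 332 TPM in siNC and 371, 354 and 399 TPM in siBCAT1 (log2 fold change 0.21 ± 0.06, adjusted p = 0.0348), and it was past the threshold in 4 of 15 alternative fits.

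NDUFV2 (ENSG00000178127, chr18:9102630-9134345, plus strand), an iron-sulfur subunit at the NADH end, was at 168, 180 and 169 TPM in siNC and at 140, 143 and 137 TPM in siBCAT1. Its groups did not overlap (log2 fold change -0.30 ± 0.05, adjusted p = 0.00694), and its gene overlaps NDUFV2-AS1 on the opposite strand, whose reads cannot be told apart if strand was not used in the counting. The core subunits NDUFV1 and NDUFS1 did not pass the threshold. NDUFV1, which binds NADH, was at 256, 291 and 265 TPM in siNC and 285, 288 and 265 TPM in siBCAT1, and NDUFS1, the largest subunit, had a log2 fold change of 0.09 ± 0.09 (adjusted p = 0.483). The sign of NDUFV1 (0.05) turned under quantile normalization and median-ratio scaling.

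Among the 6 accessory subunits of the NADH-binding module, NDUFS6 and NDUFS4 rose and NDUFA12 fell. NDUFA12 (ENSG00000184752, chr12:94897055-95003770, minus strand), a late-joining subunit of the peripheral arm, was at 162, 157 and 174 TPM in siNC and at 77.4, 85.6 and 74.4 TPM in siBCAT1. Every siBCAT1 library was far below every siNC library, a difference of -51.8% in the mean, with a log2 fold change of -1.05 ± 0.07 (SE, adjusted p = 0.000265). NDUFS6 (ENSG00000145494), a zinc-binding subunit at the joint of the module, was at 474, 545 and 554 TPM in siNC and 732, 690 and 785 TPM in siBCAT1. It was higher in all 3 siBCAT1 libraries (log2 fold change 0.49 ± 0.08, adjusted p = 0.00395). NDUFS4, whose loss causes Leigh syndrome, was at 69.5, 74.1 and 63.1 TPM against 84.4, 95.3 and 84.2 TPM (0.35 ± 0.08, adjusted p = 0.0217). NDUFA7 had the lowest estimate of those not called, -0.47 ± 0.17 (adjusted p = 0.084), with siBCAT1 replicate 3 at 74.96 TPM and the other 5 libraries between 112 and 150 TPM. Its gene overlaps an unnamed gene on the same strand and RPS28 on the opposite strand.

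Of the 11 B subunits of the membrane arm, NDUFB6 rose and NDUFB4 fell. NDUFB6 was at 49.5, 47.7 and 54.1 TPM in siNC and 68.9, 71.7 and 64.3 TPM in siBCAT1 (0.43 ± 0.08, adjusted p = 0.00673), and it overlaps SMIM27 on the opposite strand. NDUFB4 was at 189, 201 and 193 TPM against 162, 159 and 157 TPM (-0.29 ± 0.05, adjusted p = 0.00658), and 12 pseudogenes bear its name, with a summed mean of 0.18 TPM. Both genes had groups that did not overlap. Of the 9 other membrane arm subunits, NDUFA8 alone passed the threshold. NDUFA8 (ENSG00000119421), a twin-cysteine protein of the intermembrane space side whose promoter is printed above, was at 105, 127 and 120 TPM in siNC and 176, 182 and 194 TPM in siBCAT1. It was 57.2% higher in the mean (0.65 ± 0.08, adjusted p = 0.00192). None of the 3 accessory subunits of the quinone module passed. NDUFA4, placed here by its name although its protein is now assigned to complex IV, was between 41.6 and 47.0 TPM in all libraries (0.09 ± 0.07, adjusted p = 0.388).

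**Figure D3:**
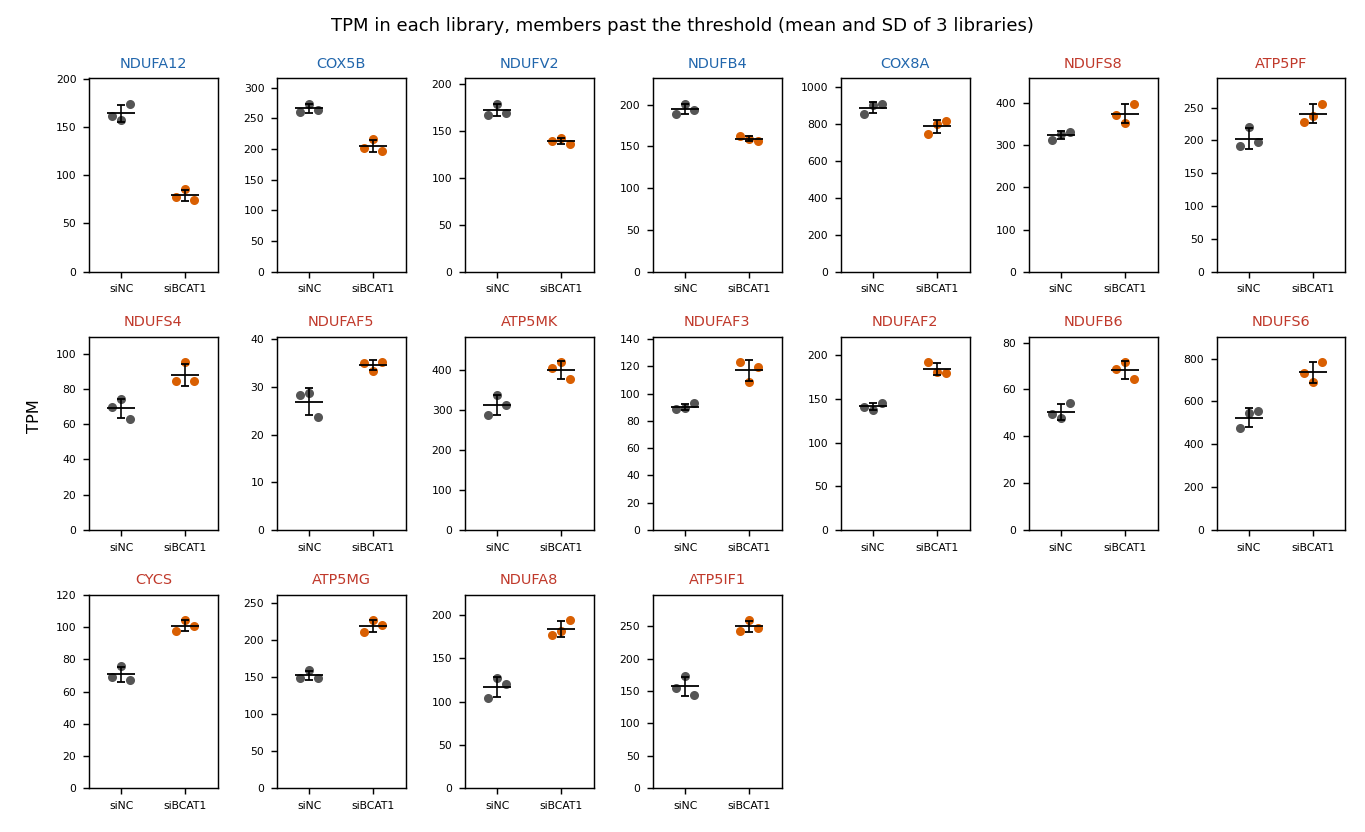
TPM in each library (y axes from 0, one panel for each gene) of 18 of the 19 genes past the threshold, ordered by log2 fold change from NDUFA12 to ATP5IF1, with points for libraries and bars for the mean and SD of 3 libraries. The siNC and siBCAT1 points do not overlap in any panel, and the gap is narrow for COX8A, NDUFS8 and ATP5PF.

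The complex I assembly factors pointed one way. All 8 NDUFAF genes had a log2 fold change above 0, with a median of 0.26, and 3 rose (37.5%, against 16.7% of all genes). NDUFAF2, a paralog of NDUFA12 that occupies its place during assembly, was at 141, 138 and 146 TPM in siNC and at 192, 181 and 180 TPM in siBCAT1 (0.38 ± 0.05, adjusted p = 0.00289). NDUFAF3, needed for an early subassembly of the quinone module, was at 88.5, 89.2 and 92.8 TPM against 123, 108 and 120 TPM (0.37 ± 0.07, adjusted p = 0.00727), and overlaps DALRD3 on the opposite strand. NDUFAF5, which hydroxylates a core subunit, was at 28.4, 28.7 and 23.7 TPM against 35.1, 33.3 and 35.3 TPM (0.35 ± 0.09, adjusted p = 0.0282). The siBCAT1 libraries were above all siNC libraries for each of these genes. NDUFAF8 had a like estimate with overlapping groups (0.37 ± 0.12, adjusted p = 0.0655), and NDUFAF4 was nearest to 0 (0.04 ± 0.17), with a sign that turned under median-ratio scaling and the GC and length correction.

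The opposite moves of NDUFA12 and its paralog were set against each other within each library, where scaling cancels. The log2 ratio of NDUFAF2 to NDUFA12 was -0.20, -0.19 and -0.26 in siNC and 1.31, 1.08 and 1.27 in siBCAT1. The siNC cells thus had slightly more NDUFA12 than NDUFAF2 in TPM, and the siBCAT1 cells had more NDUFAF2 in every library. Which of these genes is the higher in TPM also depends on the gene lengths used, listed at 2707 bases for NDUFA12 and 4520 for NDUFAF2. The difference in the log2 ratio between the groups was 1.44, with p = 0.1 in a two-sided exact permutation test, the smallest value that 3 against 3 libraries allow. Because both genes already separated the groups, in opposite directions, this p was bound to be the smallest and adds nothing to their calls. This pair was chosen after its values were seen. Among 5 other paralog pairs, the smallest exact p was also 0.1 (0.5 after Benjamini-Hochberg adjustment over the 5), for ATP5MC1 against ATP5MC2.

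**Figure D4:**
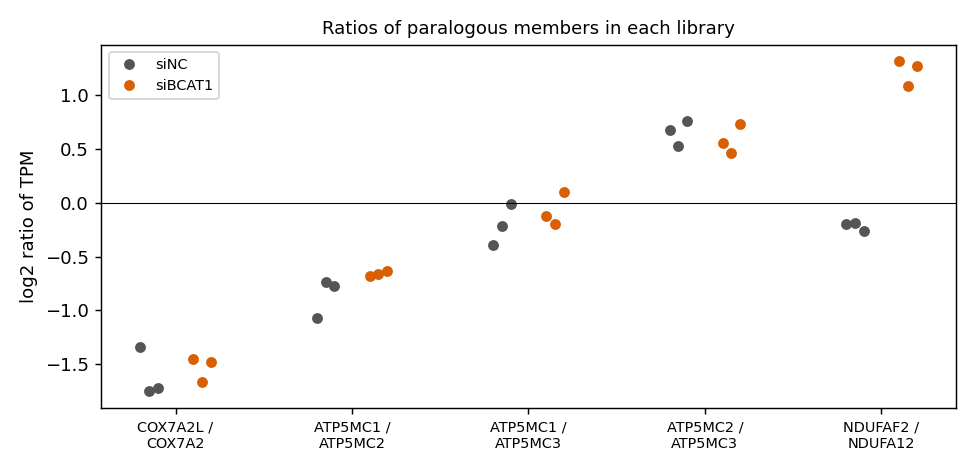
Log2 ratio of the TPM of paralogous genes (y axis) in each library, grey for siNC and orange for siBCAT1, with one point for each library. The NDUFAF2 to NDUFA12 ratio lies between -0.26 and -0.19 in siNC and between 1.08 and 1.31 in siBCAT1, whereas the groups overlap for COX7A2L to COX7A2, ATP5MC1 to ATP5MC3 and ATP5MC2 to ATP5MC3.

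None of the 9 complex III genes passed the threshold (adjusted p of 0.0762 or above by limma, with 3 at an unadjusted p under 0.05), although 2 did after correction for GC content and gene length. All 4 core genes had estimates slightly above 0. UQCRC2, a core subunit that faces the matrix, was at 160, 159 and 154 TPM in siNC and 179, 169 and 175 TPM in siBCAT1, without overlap (0.14 ± 0.05, adjusted p = 0.0762). UQCRC1, its partner, was at 0.11 ± 0.07 (log2 fold change, adjusted p = 0.266), and CYC1, the cytochrome c1 subunit, at 0.06 ± 0.07 (adjusted p = 0.53). UQCRFS1, the Rieske iron-sulfur subunit, was at 0.07 ± 0.07 (adjusted p = 0.526), and its sign turned under quantile normalization and under the GC and length correction. The 3 pseudogenes that bear its name summed to a mean of 12.1 TPM, beside 45.7 TPM for the gene itself. Of the 5 small subunits, UQCR11 and UQCRB had the lowest estimates, -0.15 and -0.12, with adjusted p of 0.0919 and 0.103.

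CYCS (ENSG00000172115, chr7:25120091-25125361, minus strand), cytochrome c, which carries electrons from complex III to complex IV and starts apoptosis when released, rose. It was at 69.4, 76.0 and 67.0 TPM in siNC and at 97.8, 104 and 101 TPM in siBCAT1. Every siBCAT1 library was above every siNC library, 42.8% higher in the mean (0.51 ± 0.07, adjusted p = 0.00232).

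In complex IV 2 of 12 genes fell (16.7%, against 10.4% of all genes) and none rose; at an unadjusted p under 0.05 there were 3, all lower. COX5B (ENSG00000135940, chr2:97646040-97648383, plus strand), a zinc-binding subunit on the matrix side, was at 260, 274 and 264 TPM in siNC and at 202, 217 and 197 TPM in siBCAT1. Its groups did not overlap (-0.37 ± 0.05, adjusted p = 0.00326), and the 7 pseudogenes that bear its name summed to a mean of 1.02 TPM. COX8A, the smallest subunit, was at 853, 900 and 909 TPM against 747, 799 and 815 TPM (-0.17 ± 0.05, adjusted p = 0.0388), a fall that lost the threshold when any 1 library was left out. COX4I1, an entry point of assembly, was between 666 and 722 TPM in all libraries (0.01 ± 0.05). COX7A2L, which joins complexes III and IV into supercomplexes, was at 0.02 ± 0.07 (adjusted p = 0.843), a sign that turned under median-ratio scaling, quantile normalization and the GC and length correction.

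The tissue-restricted forms of complex IV were nearly silent. COX4I2, COX6A2 and COX8C were listed at 0 in all 6 libraries. COX7A1 had a mean of 0.255 TPM, the highest of the 8 genes under the minimum of 1 TPM, and COX6B2, the testis form of COX6B1, was the lowest of those kept, at 1.30, 0.49 and 1.48 TPM in siNC and 1.08, 1.20 and 0.58 TPM in siBCAT1. NDUFA4L2, a hypoxia-induced relative of NDUFA4, was at 0.13, 0.08 and 0.07 TPM in siNC and listed at 0 in siBCAT1. COX6B2 and the genes under the minimum were too low for a comparison.

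In complex V, 4 of 18 genes rose (22.2%, against 16.7%) and none fell. ATP5IF1 (ENSG00000130770, chr1:28236109-28246906, plus strand), the inhibitor that stops the enzyme from hydrolysing ATP when the proton gradient collapses, was at 155, 173 and 143 TPM in siNC and at 242, 260 and 248 TPM in siBCAT1. It was 59.1% higher in the mean, with no overlap (0.67 ± 0.08, adjusted p = 0.00127). The 5 small membrane subunits, which shape the dimer in the crista membrane, all had estimates above 0, save for ATP5MJ after the GC and length correction, and 2 rose. ATP5MG, subunit g, was at 149, 159 and 149 TPM against 211, 227 and 221 TPM (0.52 ± 0.06, adjusted p = 0.00106), and overlaps 2 unnamed genes. ATP5MK, known as DAPIT, was at 288, 339 and 314 TPM against 405, 421 and 378 TPM (0.36 ± 0.07, adjusted p = 0.0114), and overlaps TAF5 on the opposite strand. The groups did not overlap for either gene.

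The catalytic F1 part of the enzyme gave no call. All 5 F1 genes had estimates below 0, from -0.24 (ATP5F1D) to -0.06 (ATP5F1C), and the adjusted p was 0.116 or above; 1 of them, ATP5F1A, had an unadjusted p under 0.05. ATP5F1B, the catalytic beta subunit, was at 837, 927 and 821 TPM in siNC and 818, 830 and 805 TPM in siBCAT1, and ATP5F1A, the alpha subunit, at -0.12 ± 0.05 (log2 fold change, adjusted p = 0.116). In the peripheral stalk, ATP5PF, coupling factor 6, passed the threshold narrowly (192, 220 and 197 TPM against 228, 237 and 256 TPM; 0.24 ± 0.07, adjusted p = 0.0445), and it was past the threshold in 4 of 15 alternative fits. Without siBCAT1 replicate 1 or without siBCAT1 replicate 2, complex V held 2 calls. ATP5MC1, ATP5MC2 and ATP5MC3 encode the same mature c subunit with different import sequences, and none of them was called. ATP5MC2 gave 45.7% ± 2.02 of their summed TPM in siNC and 43.4% ± 1.05 in siBCAT1, ATP5MC1 25.2% ± 2.27 and 27.5% ± 1.01, and ATP5MC3 29.1% ± 1.69 and 29.04% ± 2.05 (SD, n = 3).

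Partners outside the name pattern were listed by function. Of 27 complex IV assembly genes, 11 rose and 2 fell (40.7% and 7.41%, against 16.7% and 10.4% of all genes). PET117, which helps complex IV assembly, was at 5.84, 11.5 and 7.41 TPM in siNC and 29.4, 22.4 and 24.2 TPM in siBCAT1. It had the largest rise of the list (1.55 ± 0.22, adjusted p = 0.00295), with no overlap, and its gene overlaps KAT14 on the same strand. HIGD1A, a hypoxia-inducible protein of the inner membrane, had the largest fall, from 97.1, 104 and 110 TPM to 73.3, 72.0 and 72.2 TPM (-0.51 ± 0.06, adjusted p = 0.00192). Its gene overlaps an unnamed gene on the same strand. The list held 8 calls without siBCAT1 replicate 1 or 2 and 7 without siNC replicate 1.

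Of 6 complex III assembly genes, 3 rose (50%, against 16.7% of all genes) and none fell, led by UQCC1 at 21.9, 24.1 and 24.96 TPM in siNC and 45.3, 47.7 and 42.4 TPM in siBCAT1 (0.91 ± 0.08, adjusted p = 0.000592). UQCC1 acts on the cytochrome b of complex III. FMC1 and ATPAF1, factors for the F1 part, rose among 5 complex V assembly genes (40%), and FMC1 was low throughout (1.95, 5.65 and 3.17 TPM against 9.77, 13.4 and 11.5 TPM; 1.52 ± 0.28, adjusted p = 0.00846) and overlaps the read-through gene FMC1-LUC7L2. That list held 1 call without siBCAT1 replicate 2 or 3 and without siNC replicate 1 or 3. Of 11 complex I assembly genes with other names, 3 rose (27.3%), led by TMEM186 (0.58 ± 0.14, adjusted p = 0.0197), which overlaps PMM2 on the opposite strand. None of these was called without siBCAT1 replicate 1, siNC replicate 1 or siNC replicate 3, and 1 was called without siBCAT1 replicate 2 or 3.

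Put side by side, the assembly factors of all 5 complexes, NDUFAF genes included, had 24 of 61 genes higher and 2 lower, whereas the 78 subunit genes and associated members had 11 higher and 5 lower. The shares were 39.3% and 14.1% for rises (16.7% of all genes) and 3.28% and 6.41% for falls (10.4%). The median log2 fold change was 0.19 for the assembly factors and -0.012 for the others. The assembly factors also had lower levels, with a median of 28.99 TPM against 218 TPM, and longer genes, with a median of 1669 against 862 bases, and the part of level and length in the contrast was not tested. The grouping was made after the values were seen, and the contrast itself has no test. Leaving out single libraries gave between 12 and 26 rises among the assembly factors. There were fewer than 16 when siBCAT1 replicate 1, 2 or 3 or siNC replicate 1 or 3 was left out (15, 13, 15, 12 and 13). In those fits the share of all genes called higher was also lower, between 10.04% and 11.1%. It was 15.9% without siNC replicate 2.

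**Figure D5:**
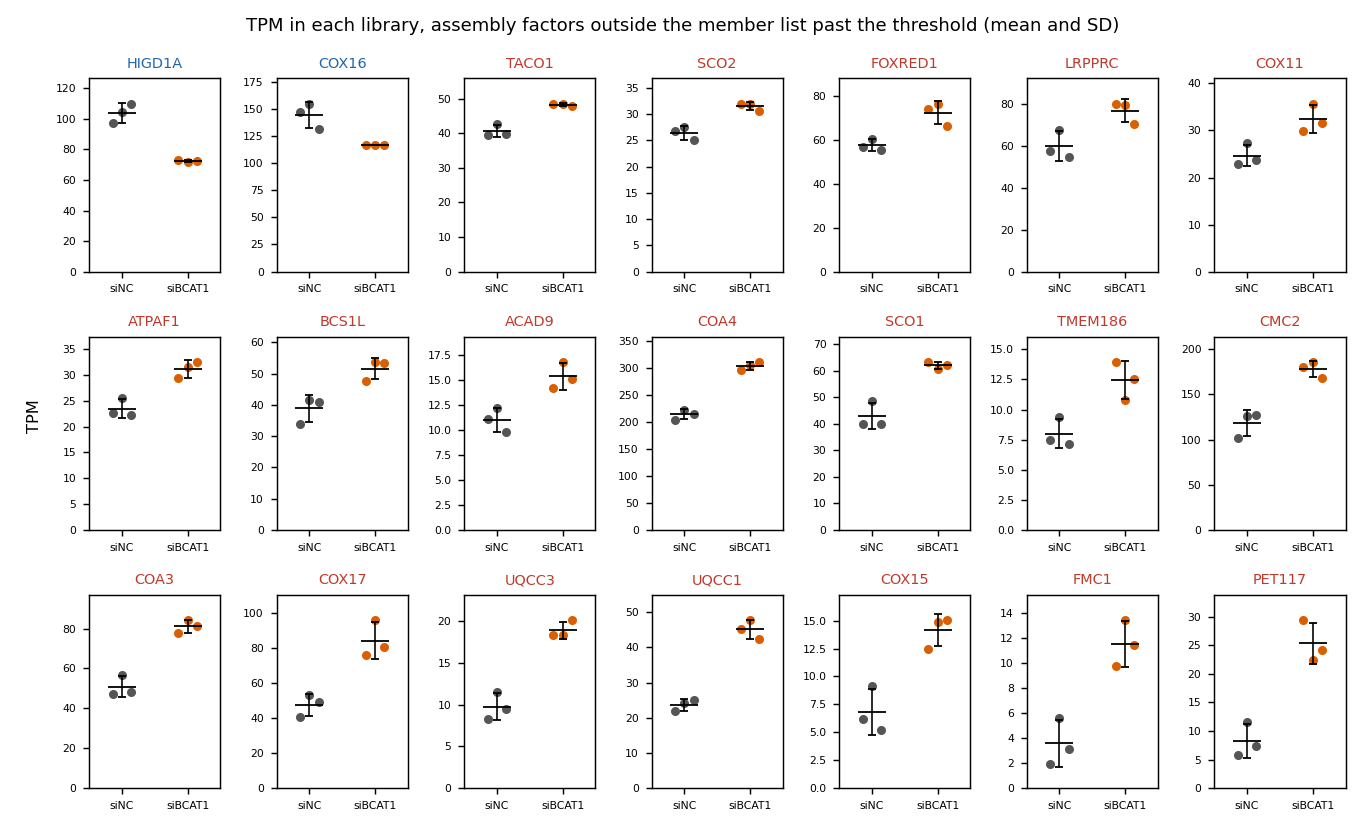
TPM in each library (y axes from 0, one panel for each gene) of the 21 assembly factors of complexes I, III, IV and V outside the name pattern that passed the threshold, ordered by log2 fold change, with points for libraries and bars for the mean and SD of 3 libraries. SDHAF1 and SDHAF3 of complex II also passed, both higher, and are not drawn. HIGD1A and COX16 are lower in siBCAT1, and the other 19 are higher, from TACO1 to PET117.

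Complex II, which passes electrons from succinate to coenzyme Q and is wholly nuclear-encoded, had 3 of 8 genes higher and none lower (37.5% higher, against 16.7% of all genes). SDHB, its iron-sulfur subunit, was at 117, 120 and 122 TPM in siNC and 182, 179 and 190 TPM in siBCAT1 (0.62 ± 0.05, adjusted p = 0.000449), and the others were the assembly factors SDHAF1 and SDHAF3. Of 11 genes of coenzyme Q synthesis, 4 rose (36.4%, against 16.7%) and none fell. COQ7, a hydroxylase of the pathway, had the largest rise, from 11, 10.9 and 11.3 TPM to 20.5, 18.6 and 19.4 TPM (0.76 ± 0.08, adjusted p = 0.00103).

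The 13 mitochondrially encoded subunits did not share these rises: 5 passed the threshold, all lower (38.5%, against 10.4% of all genes), led by MT-ND4 at -0.23 ± 0.05 (adjusted p = 0.0197). The others were MT-ND1, MT-ND2, MT-ND3 and MT-ND5, so all 5 belong to complex I. None of complexes III, IV and V passed, and MT-CO1 (0.06) and MT-CO3 (0.07) had estimates above 0. None of the 13 was called without siBCAT1 replicate 1 or 3 or without siNC replicate 1, 1 was without siNC replicate 3 and 3 without siNC replicate 2. The 13 together made up 9.45% to 9.65% of each siNC library and 8.55% to 9.40% of each siBCAT1 library.

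Of 15 regulators of respiratory chain genes, 13 were expressed enough to test, 4 rose (30.8%, against 16.7% of all genes) and none fell. POLRMT, the RNA polymerase of mitochondria, had the largest rise, from 81.4, 68.9 and 75.6 TPM to 126, 109 and 111 TPM (0.61 ± 0.09, adjusted p = 0.00297). The others were GABPB2, a partner of GABPA, PPRC1, a coactivator, and MYC, whereas NRF1, GABPA, ESRRA (the gene of ERRA), YY1 and TFAM, the factor that packs mitochondrial DNA, did not pass the threshold.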

How the data were processed

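mRNA of 3 siNC and 3 siBCAT1 libraries of 67R cells was sequenced from stranded libraries. The deposited table gives the level of each gene in every library as TPM with 2 decimals, computed by the authors, beside a gene length. The submitters' processing notes name fastp, HISAT2, StringTie and GRCh38, and the versions, the annotation and the use of strand in counting are not given in the sources used here. The unit was read from the values, and TPM hold no depth, so no counting error can be given and precision rests on the 3 libraries of each group.

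Values were analysed as log2(TPM + 1) for the 14286 genes that averaged 1 TPM or more. The two-sided test was limma 3.58.1 in R 4.3.3 (lmFit, then eBayes with a trend), and calls needed a Benjamini-Hochberg adjusted p under 0.05. The procedure was tested on simulated data drawn around the real means with the real spread. It called 35 of 118 genes changed by a log2 of 0.5 and 67 of 82 changed by 1.0. There were 0 calls in the wrong direction and 4 false calls. A gene that was not called may therefore still have changed. The simulation held far fewer changed genes than were called here, so its shares need not hold for these data. The 86 genes and all lists were chosen with earlier results of these data known. Genes named were BCAT1, the members past the threshold with the largest rises and falls (10 each at most), paralog pairs, core subunits, those at the filter and the extremes of each list; others were named after their values were seen. Positions are from GENCODE 29. Alternatives were a pseudocount of 0.1, other filters, no trend, median-ratio scaling, quantile normalization, correction for GC content and length (loess), a minimum log2 fold change of 0.5, a replicate block, and leaving out each library. Paralog ratios were compared by a two-sided exact permutation test. The values of 1 member, which enters the counts, medians and sums, are not reported here.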

Additional observations from a re-analysis of the deposited data

How the results depend on the processing

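Of the 19 calls, 13 were past the threshold in all 15 alternative fits; NDUFS8 and ATP5PF were in 4 each, COX8A in 6, NDUFAF5 in 8, NDUFS4 in 9 and ATP5MK in 13, and no called gene changed direction.

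Same-numbered libraries deviated together only weakly (r = 0.0844, 0.102 and 0.124), although each library correlated best with its own number, a hint from the data and not from the design. Deviations were taken from the group mean and cancel within each group. The matches therefore depend on each other, and they had no test. With the replicate block, 24 members and 4568 genes in all were called. Of the members, 17 were higher (19.8%, against 19.4% of all genes) and 7 lower (8.14%, against 12.6%). With the block together with GC content and length, 32 members were called, 16 in complex I and 2 in complex III. Of these members, 18 were lower (20.9%, against 14.7% of all genes in that fit) and 14 higher (16.3%, against 16.6%). In the same fit 5 of the 61 assembly factors were lower, to be read beside the same 14.7% of all genes. The medians, and the values of COX7A2L and UQCRFS1, were those of the GC and length correction without the block.

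The member median was -0.058 with GC content and length, -0.038 with median-ratio scaling and -0.040 with quantile normalization. In the same order it was -0.069, -0.060 and -0.066 for complex I, 0.20, 0.21 and 0.18 for its assembly factors, -0.048, 0.0015 and -0.053 for complex III, -0.11, -0.093 and -0.078 for complex IV and -0.011, 0.023 and 0.0063 for complex V. CYCS was at 0.43 with GC content and length and at 0.43 with quantile normalization. GC content and length gave 12 lower members and 2 complex III calls. Quantile normalization gave 11 lower members, 2 complex III calls and 1 mitochondrially encoded call. It also gave 4 lower among the 61 assembly factors, where 13.1% of all genes were lower. Signs turned for COX7A2L (-0.063, -0.025 and -0.059 in the same order), NDUFV1 (-0.00093 with median-ratio scaling, -0.020 with quantile normalization) and UQCRFS1 (-0.0037 with GC content and length, -0.020 with quantile normalization).

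A minimum log2 fold change of 0.5 left 2157 genes in all (1270 higher, 887 lower) and 6 members (5 higher, 1 lower): 3 of complex I, CYCS and 2 of complex V, with 0 in complex IV and in the NDUFAF genes. It left 12 higher and 1 lower assembly factor, and of the lists 1 in coenzyme Q synthesis, 1 in complex I assembly with other names, 8 in complex IV assembly, 1 in complex V assembly and 0 mitochondrially encoded. No filter gave 2567 genes in all (960 lower), over more genes tested, 1 call in complex IV, 1 in complex I assembly with other names and 0 mitochondrially encoded. No trend gave 1 call in complex IV, 1 lower assembly factor and 0 mitochondrially encoded.

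Leaving out each library in turn gave between 2318 and 3706 genes in all (1435 to 2276 higher, 796 to 1430 lower), 9 to 15 higher members, and 7 to 12 higher members other than assembly factors. It gave 0 to 1 calls in complex III, 1 in complex IV and 2 to 5 in complex V, 12 to 26 higher and 1 to 2 lower assembly factors, 0 to 4 calls in complex I assembly with other names, 7 to 14 in complex IV assembly, 1 to 2 in complex V assembly and 0 to 5 mitochondrially encoded. The NDUFAF median ranged from 0.23 to 0.28, that of complex III from -0.0085 to 0.064 and that of complex IV from -0.050 to -0.014. Signs turned for COX6B2 (-0.30 to 0.068), COX7A2L (-0.0099 to 0.071), ATP5MC3 (-0.11 to 0.019) and COX7A2 (-0.13 to 0.0086). Except where fewer libraries or more genes tested enter by construction, the cause was not tested.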

Other observations

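The methods of the study give a pair of BCAT1 siRNAs, and the name siBCAT1, which the sequenced group carries, belongs to the second of them. The transcripts of the 86 genes (the longest protein-coding one of each in GENCODE 29, GRCh38) were searched for the 7-letter word that matches the seed of the antisense strand of each siRNA. The word is TTGAGCA for the one named siBCAT1 and AGACAAT for the other. The search was added after the values were seen, and it has no test.

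TTGAGCA was found in 12 of the 86 genes (13.95%, against 23.2% of 11719 tested genes). Of these 12, 2 rose, NDUFAF5 among them, and none fell, while 16.2% of tested genes with the word rose and 11.05% fell. The median log2 fold change was -0.019 in members with the word and 0.010 without it, and over all tested genes it was 0.022 and 0.042.

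AGACAAT, the word of the siRNA not named siBCAT1, was found in 8 of the 86 genes (9.30%, against 19.7% of tested genes). Of these 8, 7 had a negative log2 fold change and 2 fell, while 56.7% of tested genes with the word were negative, 16.8% fell and 10.2% rose. The median log2 fold change was -0.12 in members with the word and 0.039 without it, and over all tested genes it was -0.051 and 0.061. The 2 that fell were NDUFA12 and NDUFV2, and their sites are printed with 11 bases on each side, 5′ to 3′ on the strand of the gene, with the word in capitals.
NDUFA12: cttacaagtaaAGACAATgaagaacagtt
NDUFV2: ggagaccttacAGACAATttgtttctaca

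The NDUFA12 site is at chr12:94971422-94971450 on the minus strand, in the 3′ UTR of transcript NDUFA12-201, where the word covers bases 529 to 535 and the coding sequence ends at base 525. The NDUFV2 site is in the coding sequence of NDUFV2-202 on chr18, and it crosses an exon junction, with ends at 9104222 and 9104968 on the plus strand. COX5B, NDUFB4 and COX8A fell and did not hold the word. The part of these words in the changes was not tested.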
